A study of Canis lupus familiaris with 36 samples.

Results

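The cluster of miR-183, miR-96 and miR-182 was examined in small RNA libraries of canine cardiac tissue, of which 6 came from cardiac hemangiosarcoma (HSA), a tumor of endothelial cells, and 6 from control hearts. Its 3 members, cfa-miR-183, cfa-miR-96 and cfa-miR-182, were taken by name from the 453 mature miRNAs of the count table, where each has 1 precursor. All tissue was archived, formalin-fixed and paraffin-embedded, each library was made from whole sections, and the control dogs had died of non-neoplastic causes. The paper states that, across the study, the HSA dogs were significantly older than the control dogs. Earlier chemotherapy did not exclude a dog and was not stratified. Age and treatment therefore cannot be told apart from the condition here. The title of every cardiac library names the opposite condition to its treatment label, and the titles were used for grouping, so that every direction given here would turn if the treatment labels were right. A further 24 splenic libraries were not analysed here. Library totals were deeper in control, 6999830 to 11668822 counts with a median of 9049880.5, than in HSA, 2018959 to 8999025 counts with a median of 4233661.

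The members of the cluster are cut from hairpins that lie close together and are thought to be made as 1 primary transcript. The cluster is best known from sensory cells of the inner ear and retina, where changes in miR-96 cause hearing loss, and from epithelial tumors, where it is often raised. MiR-182 and miR-96 are known repressors of FOXO transcription factors, and miR-182 is also induced in activated lymphocytes. All 3 precursors were matched in the RefSeq gene table of the assembly UU_Cfam_GSD_1.0, where they are consecutive entries of chromosome 14 in the order MIR183, MIR96, MIR182, next to the long non-coding RNA LOC102151305 and between UBE2H and NRF1.

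MiR-182 and miR-183 were higher in every HSA library than in any control library. Levels are given as CPM, the counts of a miRNA scaled to a common library total, with TMM factors that center the bulk of the miRNAs. MiR-182 had 0.436 to 5.43 CPM in control (median 2.91) and 11.3 to 531 CPM in HSA (median 39.8), or 2.88 ± 1.72 against 118 ± 203 CPM (SD, n = 6 each). Its log2 fold change was 5.34 (standard error 1.04), with an adjusted p of 0.00226 in edgeR's quasi-likelihood test. MiR-183 had 0.408 to 5.17 CPM in control (median 1.88) and 7.86 to 407 CPM in HSA (median 24.1), or 2.50 ± 1.97 against 85.8 ± 158 CPM (SD, n = 6 each). The same test gave it a log2 fold change of 5.09 with a standard error of 1.13 (edgeR adjusted p = 0.00424). The controls thus carried only traces of both miRNAs, from 3 to 42 counts of miR-182 and from 4 to 48 counts of miR-183 per library.

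Both members were called higher, where a call needed an adjusted p below 0.01 together with a change of 1 or more on the log2 scale, in either direction. Of the 225 mature miRNAs tested, 58 were called, or 25.8%, of which 42 were higher in HSA, or 18.7%, and 16 lower, or 7.11%. This background is itself unsteady, since the 58 calls became 24 to 38 without any 1 of control replicates 1, 2, 4, 5 and 6 or HSA replicate 4, lowest without control replicate 5, and scaling by library size only gave 68 higher and 5 lower. By log2 fold change miR-182 ranked 8 and miR-183 ranked 10 among the 225, against a median of 0.34 over all of them, and 14 of the 225, or 6.22%, had a value of 4 or more as both members did. All HSA libraries lay above all control libraries for 34 of the 225, or 15.1%. Both members needed HSA libraries, where they were high, to pass the filter on low counts. Control replicate 5 held only 3 counts of miR-182 and 7 of miR-183, and control replicate 2 held 4 of miR-183. Their calls and ranks beside these shares are therefore a description and not independent support. An exact permutation test on log2(CPM + 0.5), two-sided, gave p = 0.00216 for each of both members, the smallest value that 6 libraries against 6 allow. In whole tissue, more cells carrying a miRNA and more of it per cell cannot be told apart.

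**Figure D1:**
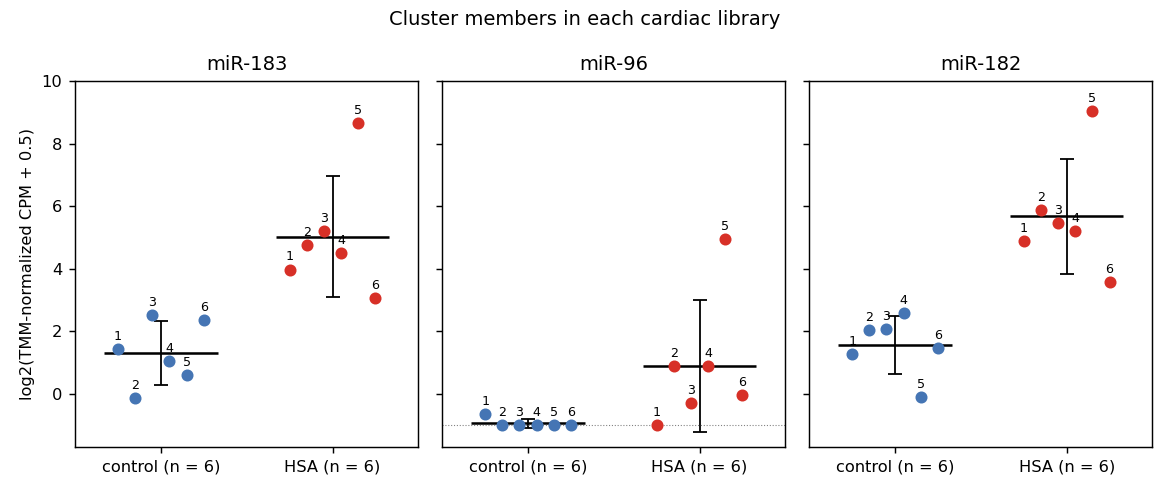
Level of each cluster member in each cardiac library, as log2(TMM-normalized CPM + 0.5), for 6 control (blue) and 6 HSA (red) libraries, with replicate numbers beside the points, the group mean as a line and the SD as a bar. The dotted line is a count of 0. HSA replicate 5 is the highest library for all 3 members, and for miR-183 and miR-182 the lowest HSA library, replicate 6, lies above every control library.

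The HSA libraries differed widely among themselves. HSA replicate 5 alone held 75.0% of the summed miR-182 CPM and 79.0% of the summed miR-183 CPM of the 6 HSA libraries. Against the control mean, miR-182 stood 184-fold higher in that library, between 10.1-fold and 20.0-fold higher in HSA replicates 1 to 4, and 3.91-fold higher in HSA replicate 6. For miR-183 the corresponding values were 163-fold in HSA replicate 5, 6.09-fold to 14.7-fold in HSA replicates 1 to 4, and 3.14-fold in HSA replicate 6. The highest HSA library exceeded the lowest 47.2 times for miR-182 and 51.8 times for miR-183. The median of this ratio was 3.87 over the 219 tested miRNAs with a count in every HSA library, and for 30 of them it was at least as large as for miR-182.

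Without HSA replicate 5, the log2 fold change of miR-182 was 3.60 (standard error 0.58, adjusted p = 0.000904 in edgeR) and that of miR-183 was 3.09 (standard error 0.63, adjusted p = 0.0031 in edgeR). The call of miR-182 was kept with each of the 12 libraries left out in turn. The call of miR-183 was lost in edgeR without control replicate 1, 2, 4 or 5, with adjusted p from 0.0108 to 0.0126, while its log2 fold change stayed at 4.86 or above in these fits. DESeq2 gave log2 fold changes of 5.26 and 5.01 but no p-value for either, because its rule on Cook's distance withholds p where a library departs too far from the fit. With that rule off, an alternative chosen after seeing the data, its adjusted p was 8.37e-09 for miR-182 and 4.6e-07 for miR-183.

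**Figure D2:**
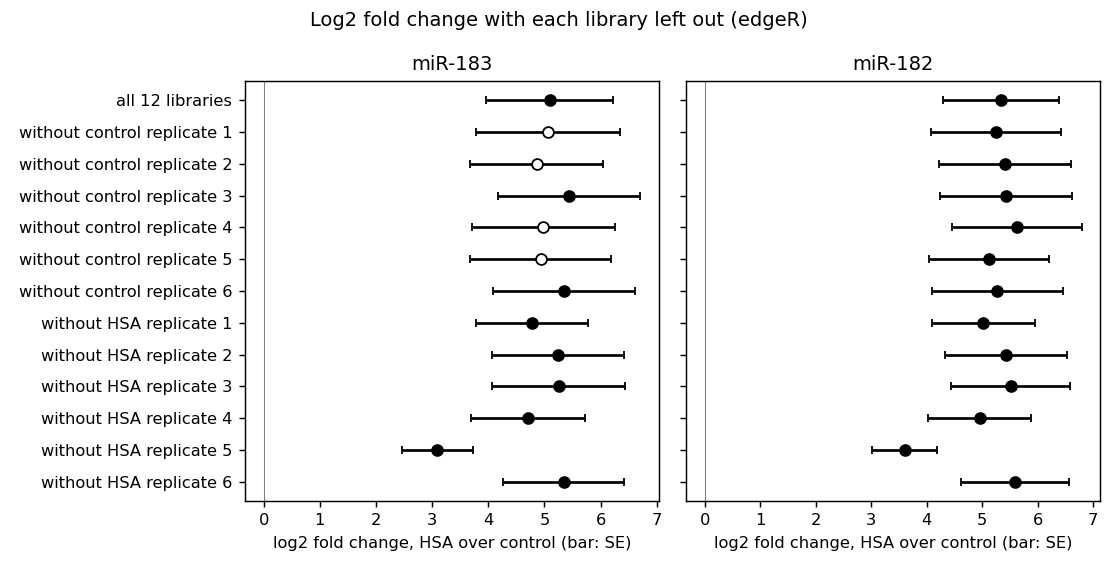
Log2 fold change of HSA over control for miR-183 (left) and miR-182 (right) in edgeR, with all 12 libraries and with each library left out, the bar giving the standard error. Filled points are called and open points are not. The value drops to 3.09 for miR-183 and 3.60 for miR-182 without HSA replicate 5, and the open points are miR-183 without control replicate 1, 2, 4 or 5.

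MiR-96 was the scarce member and was nearly undetected in control hearts. The 6 control libraries held 1 count of miR-96 in all, in control replicate 1. The HSA libraries held 184 counts, of which 161, or 87.5%, were in HSA replicate 5. The others had 12 counts in HSA replicate 2, 6 in HSA replicate 4, 4 in HSA replicate 6, 1 in HSA replicate 3 and 0 in HSA replicate 1. Only 4 HSA libraries therefore exceeded 3 counts, which was taken as the detection floor.

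MiR-96 did not pass the filter on low counts and was not tested with the other miRNAs. An exact permutation test on its log2(CPM + 0.5), two-sided, gave p = 0.0152. With each control library set to its floor of 3 counts, a mean of 0.392 CPM, miR-96 was at least 14.3-fold higher in HSA, with a mean of 5.60 ± 12.1 CPM (SD, n = 6). Without HSA replicate 5 the HSA mean was 0.687 CPM, or 1.75-fold the mean control floor. HSA replicates 1 and 3, at 0 and 0.311 CPM, were under their own floors of 1.35 and 0.934 CPM. The ratio of 1.75 is therefore not a lower bound. With no filter beyond 1 read, edgeR gave miR-96 a log2 fold change of 7.11 (adjusted p = 0.00633), a value that depends on the small count added to the control libraries.

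The proportions of the cluster were compared within libraries, where scaling between libraries has no part. The 3 mature miRNAs are of similar length, but ligation in small RNA libraries favors some sequences, so the proportions of counts are not proportions of molecules. In the pooled HSA counts, miR-182 made up 56.7% of the 6730 cluster counts (95% Wilson interval 55.6 to 57.9), miR-183 40.5% (39.4 to 41.7) and miR-96 2.73% (2.37 to 3.15). With HSA replicate 5 left out, 1563 counts remained, of which miR-182 took 63.0%, miR-183 35.6% and miR-96 1.47%. In the pooled control counts, 259 in all, miR-182 made up 54.8% (48.7 to 60.8), miR-183 44.8% (38.9 to 50.9) and miR-96 0.386% (0.0682 to 2.15). The intervals cover the counting error of reads alone, and not the spread between dogs. They can be too narrow even for the sampling of molecules, because PCR copies of 1 molecule are counted as separate reads.

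In every HSA library miR-182 exceeded miR-183, and in the controls it did so in control replicates 2 and 4. Of the counts of both, miR-182 took 54.1% to 68.6% in HSA (61.0% ± 5.52, SD, n = 6) and 30.0% to 89.7% in control (53.0% ± 24.8, SD, n = 6). The ratio of miR-182 to miR-183 ran from 1.18 in HSA replicate 3 to 2.18 in HSA replicate 2. It ran from 0.429 in control replicate 5, with 10 counts of both, to 8.75 in control replicate 2, with 39 counts of both. The HSA libraries were thus close in proportion while their levels differed most, and the control libraries scattered on both sides of an equal share.

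The Wilson intervals of some libraries of 1 condition did not overlap, for pairs named after their values were seen, and separate dogs may differ by more than counting error. The share of miR-182 in HSA replicate 2, 68.6% (95% Wilson interval 65.2 to 71.8), had no overlap with that in HSA replicate 5, 56.6% (55.3 to 58.0), or in HSA replicate 3, 54.1% (48.0 to 60.1). In control replicate 2 it was 89.7% (76.4 to 95.9), and in control replicate 4 it was 77.8% (65.1 to 86.8). Both of these lay apart from control replicate 3, at 41.5% (31.4 to 52.3), and control replicate 6, at 32.6% (20.5 to 47.5).

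**Figure D3:**
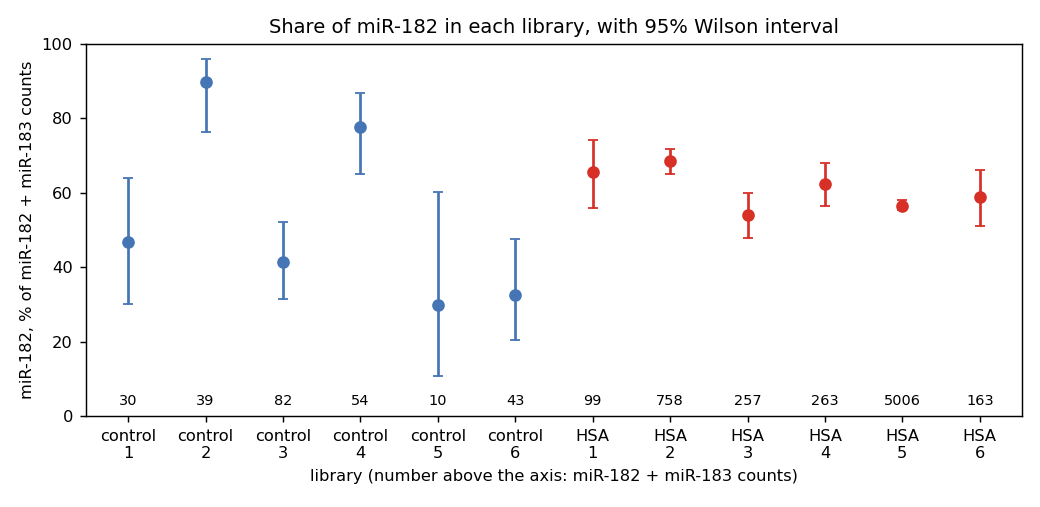
Counts of miR-182 as a percent of the counts of miR-182 and miR-183, per library, with 95% Wilson intervals and the number of counts behind each point above the axis, control in blue and HSA in red. The HSA shares lie between 54.1% and 68.6%, and the control shares between 30.0% and 89.7%.

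With 0.5 added to each count, the log2 ratio of miR-182 to miR-183 was 0.65 ± 0.34 in HSA and 0.32 ± 1.67 in control (SD, n = 6 each), a difference of 0.33 (exact permutation test, two-sided p = 0.654, adjusted p = 0.861 over 3 ratios). That of miR-96 to miR-183 was -4.71 ± 1.17 in HSA and -4.61 ± 1.38 in control, and that of miR-96 to miR-182 was -5.36 ± 1.19 and -4.93 ± 1.57. The exact permutation p-values of these 2 were 0.861 and 0.593. None of the 3 differences exceeded the spread between libraries at this setting. Depth limits the comparisons of miR-96, since at the share of miR-96 in HSA replicate 5, 3.12% of the cluster, the control libraries would hold between 0.312 and 2.56 counts of miR-96 each. All control libraries together would hold 8.07 at that share and held 1, and the Wilson interval of the pooled control share (0.0682 to 2.15%) lay below that of the pooled HSA share (2.37 to 3.15%) but overlapped it without HSA replicate 5 (0.983 to 2.20%). These pooled intervals count reads and not dogs, so they do not measure the spread between dogs. HSA replicate 5 held 161 of the 184 HSA counts of miR-96. With 3 added to each count the differences (HSA minus control) were -1.35 and -1.69, with adjusted p of 0.0455 and 0.013 in the exact test, and with the counts thinned to the smallest library that of miR-96 to miR-182 was -1.97 (exact permutation p = 0.00866, adjusted p = 0.026) and that of miR-96 to miR-183 was -1.27 (exact permutation p = 0.11, adjusted p = 0.166). The calls on the ratios of miR-96 thus depend on the added count and on depth.

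Among the HSA libraries the share of miR-96 could be compared where the cluster was deep enough. It was 3.12% (95% Wilson interval 2.68 to 3.63) of 5167 cluster counts in HSA replicate 5. In HSA replicate 3 it was 0.388% (0.0685 to 2.16) of 258 cluster counts, with 1 count of miR-96 where 8.04 would match the share in HSA replicate 5. HSA replicate 2 had 1.56% (0.894 to 2.70), HSA replicate 4 had 2.23% (1.03 to 4.78) and HSA replicate 6 had 2.40% (0.935 to 6.00). HSA replicate 1 had 0 of 99 cluster counts, which allows a share of up to 3.03% by the floor of 3 counts and up to 3.74% by the Wilson interval, so that it could not be told from HSA replicate 5 at this depth.

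Within HSA, miR-182 and miR-183 ranked the libraries almost alike. Both were highest in HSA replicate 5, then came HSA replicates 2 and 3 in exchanged order, followed by HSA replicates 4, 1 and 6. Over the 6 HSA libraries Pearson's r of log2(CPM + 0.5) was 0.99 (exact permutation p = 0.00556, two-sided) and Spearman's rho was 0.94 (exact permutation p = 0.0167). Adjusted over the 12 values computed for 3 pairs in both conditions, these were 0.0667 and 0.10. Each partner was ranked by r among 224 miRNAs, itself and those tested outside the cluster, with the third member left out. The r of miR-183 was highest with miR-182, and that of miR-182 was highest with miR-183, while miR-96 ranked 5 and 6. Without HSA replicates 5 and 6, the farthest from the median, r was 0.69 over 4 libraries, so that the strength of the relation rests in part on these libraries.

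MiR-96 followed less closely. Its r was 0.90 with miR-183 and 0.90 with miR-182 (exact permutation p = 0.0625 and 0.0514, adjusted p = 0.188 for both), with rho of 0.54 and 0.71. Without the 2 libraries farthest from the median these r fell to 0.32 and 0.45, so these relations rest on those libraries. In control the r of miR-183 with miR-182 was 0.14 (exact permutation p = 0.811) and rho was 0.20 (exact permutation p = 0.714), with r of 0.33 without the 2 farthest libraries. With miR-96, which had 1 control count, r in control was 0.07 for miR-183 and -0.14 for miR-182, and these say nothing at this depth. The difference in concordance between HSA and control was not tested.

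The cluster was then set beside lists of miRNAs that mark other cell types, since whole sections hold more than tumor. Of the 7 epithelial miRNAs, the miR-200 family with miR-141, miR-203 and miR-205, 3 were tested. MiR-200c and miR-203 were called higher and none lower, where 18.7% and 7.11% of all tested miRNAs were. MiR-429, the third, had a log2 fold change of 6.11 (edgeR adjusted p = 0.0104) and was not called. In control miR-200c had 4 to 31 counts and miR-429 had 0 to 12, and both needed HSA libraries to pass the count filter. The share called among the 3 therefore says nothing about the list. The summed level of the list was 7.74 to 20.9 CPM in control and 43.2 to 3290 CPM in HSA, again highest in HSA replicate 5 and lowest in HSA replicate 6. The other 4 failed the count filter. In control, miR-141, miR-200a and miR-205 each had counts in 1 library, with 3, 5 and 2 counts, and miR-200b had 0 to 14 counts. Of the 5 neuroendocrine and neural miRNAs, 4 were tested and miR-153 failed the count filter. MiR-375 and miR-7, which mark pancreatic islet and other endocrine cells, were called higher, where 18.7% of all tested miRNAs were. MiR-9 and miR-124 were not called, with log2 fold changes of 0.61 (edgeR adjusted p = 0.192) and 1.65 (edgeR adjusted p = 0.218). The median over the 4 was 3.08, against 0.34 over all tested miRNAs, and the tested members thus did not all rise alike. The summed level of the 5 was 282 to 599 CPM in control and 709 to 24800 CPM in HSA, with HSA replicate 5 highest and HSA replicate 2 next.

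Over the 6 HSA libraries, the summed cluster had an r of 0.92 with the epithelial list (exact permutation p = 0.0111) and of 0.84 with the neuroendocrine list (exact permutation p = 0.00417), on log2(CPM + 0.5). The epithelial members did not all follow this order. In HSA replicate 2, which was second for miR-182, miR-203 made 331 of the 339 CPM of the list, while miR-200c stood at 7.98 CPM, its lowest HSA value, and miR-429, miR-200a and miR-200b had 0 counts. The rho values with the 2 lists were 0.83 (exact permutation p = 0.0583) and 0.94 (exact permutation p = 0.0167). Adjusted over the 16 values of 8 lists, the p-values were 0.0889 and 0.0667 for r, and 0.218 and 0.0889 for rho. Without the 2 libraries farthest from the median r was 0.58 and 0.76, so that both relations rest in part on those libraries. With CPM scaled by library size only, both r passed the threshold of 0.05, at 0.93 and 0.87 with an adjusted p of 0.0222 each. The part of epithelial or endocrine cells in the level of the cluster was not tested.

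**Figure D4:**
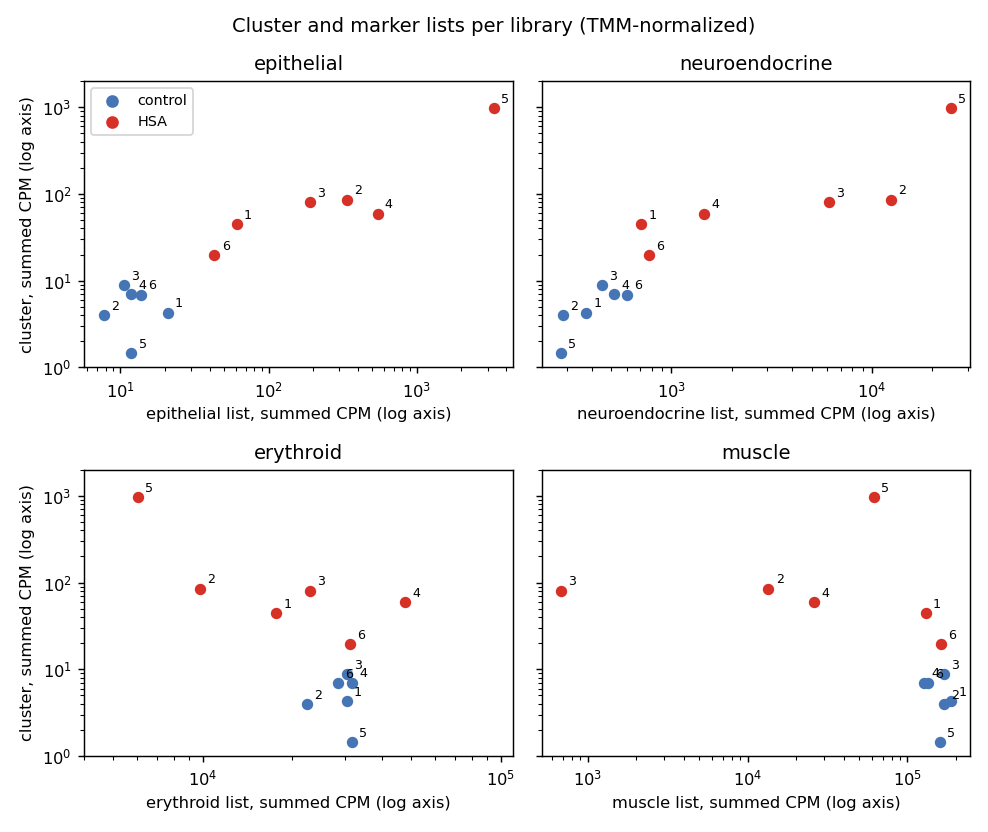
Summed TMM-normalized CPM of the 3 cluster members against the summed CPM of 4 marker lists, per library, on log axes, control in blue and HSA in red with replicate numbers. HSA replicate 5 is highest for the cluster, the epithelial list and the neuroendocrine list and lowest for the erythroid list, and HSA replicates 1 and 6, the lowest HSA libraries for the cluster, have muscle levels within the control range.

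The other 6 lists are given by role, and none had an adjusted p under 0.05 for its relation with the cluster. The muscle list, led by miR-133a and miR-1, had 6 tested members with a median log2 fold change of -1.25. None was called, where 7.11% of all tested miRNAs were called lower and 18.7% higher. The muscle list had 127000 to 187000 CPM in control and 683 to 161000 CPM in HSA, with 161000 and 130000 CPM in HSA replicates 6 and 1, where the cluster was lowest, and 683 CPM in HSA replicate 3. Its r with the cluster in HSA was -0.11 (exact permutation p = 0.847) and rho was -0.60 (exact permutation p = 0.242). The erythroid list, of miR-451, miR-144 and both arms of miR-486, had 1 member called higher, miR-144, and 1 called lower, miR-486-3p, with a median of -0.26 over 4 that turned positive with scaling by library size only. Its members moved apart, with log2 fold changes of 1.77 for miR-144 and 0.81 for miR-451 but -1.33 for miR-486 and -2.75 for miR-486-3p. MiR-486 was the member with the highest level, so the sum need not stand for the others. The list had 22300 to 31700 CPM in control and 6040 to 47700 CPM in HSA, with its lowest value in HSA replicate 5, an r with the cluster of -0.77 (exact permutation p = 0.0681) and a rho of -0.71 (exact permutation p = 0.136).

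All 4 lymphoid and myeloid miRNAs, miR-150, miR-142, miR-155 and miR-223, were called higher in HSA, where 18.7% of all tested miRNAs were, and their median log2 fold change was 2.31 against 0.34 over all. Their sum was 289 to 424 CPM in control and 578 to 3550 CPM in HSA, but only 804 CPM in HSA replicate 5, and its r with the cluster was -0.08 (exact permutation p = 0.922) with a rho of 0.26 (exact permutation p = 0.658). MiR-126, the endothelial marker, was not called. Its level was 2370 to 4210 CPM in control, against 944 to 4290 CPM in HSA, and its log2 fold change of -0.45 turned to 0.06 with scaling by library size only. Its r with the cluster was -0.50 (exact permutation p = 0.354) and rho was -0.43 (exact permutation p = 0.419). MiR-122, the liver marker, was called higher, with 4.99 to 43.9 CPM in control and 66.7 to 204000 CPM in HSA. Its highest value lay in HSA replicate 3, also the lowest library for the muscle list at 683 CPM, and every other HSA library had 478 CPM or less. The lowest HSA value of miR-122 lay in HSA replicate 5. Its r with the cluster was -0.19 (exact permutation p = 0.512) with a rho of -0.31 (exact permutation p = 0.564). Of the 6 miRNAs of the proliferation list, from the miR-17-92 cluster, 4 were called higher and none lower, against 18.7% and 7.11% of all tested miRNAs, with a median log2 fold change of 1.33 against 0.34 over all. MiR-17 was not called, at 1.34 (edgeR adjusted p = 0.0404). MiR-92a, the member with the highest level, was not called either, at -0.30 (edgeR adjusted p = 0.316), which turned to 0.29 with scaling by library size only. The sum of the list, led by miR-92a, therefore need not stand for the others. It was 3690 to 5520 CPM in control (median 4360) and 2500 to 6370 CPM in HSA (median 3740). Its r with the cluster was -0.29 (exact permutation p = 0.603) and rho was -0.14 (exact permutation p = 0.803).

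The 5 miRNAs outside the cluster whose pattern over the 6 HSA libraries was most like its summed level were miR-215 (r = 0.97), miR-135b (r = 0.95), miR-129 (r = 0.92), miR-383 (r = 0.91) and miR-203 (r = 0.90). These are given as a description, over libraries that share HSA replicate 5 as their highest point for each of the 5. MiR-215, a relative of miR-192 from gut and kidney epithelium, had 343 CPM in that library, 1.06 to 15.0 CPM in the other HSA libraries and 0 to 1.80 CPM in control. MiR-135b had 233 CPM there, 6.80 to 13.7 CPM in the other HSA libraries and 0.776 to 6.83 CPM in control. MiR-129, known from neural and endocrine tissue, had 148 CPM there, 6.28 to 22.8 CPM in the other HSA libraries and 2.47 to 3.75 CPM in control. Of the 225 tested miRNAs, 50, or 22.2%, were highest in HSA replicate 5 among the HSA libraries. Over all 12 libraries, where the difference between the conditions enters, the 5 were miR-129, miR-203, miR-450b, miR-215 and miR-375, with r from 0.88 to 0.94.

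MiR-1271, which is grouped with miR-96 in 1 seed family and lies outside the cluster, was abundant in both conditions, unlike miR-96. It had 177 to 231 CPM in control and 117 to 162 CPM in HSA, or 189 ± 21.1 against 141 ± 19.4 CPM (SD, n = 6 each). The log2 fold change of -0.43 with a standard error of 0.15 (edgeR adjusted p = 0.0374) did not meet the thresholds for a call and turned to 0.14 (adjusted p = 0.494 in edgeR) with scaling by library size only. In each control library and each HSA library, miR-1271 was more abundant than miR-96, including HSA replicate 5, with 157 CPM against 30.2 CPM.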

How the data were processed

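Reads of the cardiac libraries (NEXTflex small RNA kit in the methods, another kit in the labels) were trimmed by the authors with Cutadapt 4.1, dropping those under 17 nt, aligned to CanFam3.1 with Bowtie 1.3.1 and counted on miRBase 22.1 miRNAs with HTSeq 2.0.2. The authors deposited raw counts for 517 entries, each a mature miRNA with its precursor, and a second table of CPM. Recomputed and deposited CPM differed by at most 0.00499.

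Merging of 43 repeated entries left 474. Counts were tested in R 4.3.3 with edgeR 4.0.16 (TMM factors, default filter by condition, quasi-likelihood F test, Benjamini-Hochberg adjustment), which kept 244 entries of 225 mature miRNAs. The thresholds are those of the study. Standard errors were obtained by dividing each log2 fold change by √F. Of several entries for 1 mature miRNA, that with the highest count stood for it. Ratios and correlations were tested by exact permutation over the 924 divisions or 720 pairings of libraries, two-sided, with Benjamini-Hochberg adjustment within each family and a threshold of 0.05. Alternatives included DESeq2 1.42.0, limma 3.58.1, other scalings, filters and added counts, thinning to the smallest library of 2018959 counts, a replicate term and each library left out. Python 3.11.15 was used for the rest. The tests were checked on simulated data.

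The members, the marker lists (from general knowledge) and the tests were chosen with earlier results of these data known. Named miRNAs are the members, those of the lists, the seed family of miR-96 and the 5 most like the cluster by r over the HSA libraries and over all libraries. Seeds could be taken from general knowledge only. Replicate numbers follow the titles. The libraries come from different dogs, and the correlation of deviations between same-numbered libraries ran from -0.29 to 0.06, so the numbers do not pair them. No sequencing batch is given. Library names are formatted differently in HSA and control, and a batch split along those lines cannot be told apart from the condition. Each library is 1 dog.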

Additional observations from a re-analysis of the deposited data

Results flagged for a closer look

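Each group of 6 libraries was searched for a highest or lowest library standing far from its neighbor for the range of the group (Dixon's test at its 95% critical value). Over the 14 groups of values, chance flags about 5% if the values are normally distributed. Levels were taken as CPM and not as logs, and CPM with 1 very high library need not be so distributed. Whether the flags hold on a log scale was not tested. HSA replicate 5 stood apart from the other HSA libraries for miR-182 at 531 CPM, for miR-183 at 407 CPM, for miR-96 at 30.2 CPM and for their sum at 969 CPM, with gaps of 0.911, 0.928, 0.956 and 0.931 of the range. These 4 values come from 1 library and are not independent. Control replicate 1 stood apart for miR-96 at 0.138 CPM, which is 1 count where the other control libraries had 0. Such a pattern is flagged at any value, so this flag carries no information. The ratios between members gave no such library in either condition.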

How the results depend on the processing

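Without 1 library at a time the log2 fold change of miR-183 ran from 3.09 to 5.44 and that of miR-182 from 3.60 to 5.62. Without HSA replicates 2 and 5, chosen after seeing the data, they were 2.84 (adjusted p = 0.00539 in edgeR) and 3.20 (adjusted p = 0.00208). DESeq2 withheld the p-values at 5.01 for miR-183, 5.26 for miR-182 and 7.29 for miR-96, and without Cook's rule, chosen after seeing the data, called miR-96 at 7.29 (adjusted p = 0.000197). The replicate block, which spends 5 degrees of freedom on numbers that do not pair the dogs, gave 3.85 for miR-183 (adjusted p = 0.0334) and 3.93 for miR-182 (adjusted p = 0.0298), with 6 called miRNAs in place of 58. For the ratios, the replicate block (an exact sign-flip test) changed no call. No paired analysis was possible for the correlations because each lies within 1 condition. Under the other alternatives that kept all libraries both members stayed called, except that thinning left miR-183 under the filter and without a value. Over every alternative outside those leaving out 1 library, miR-183 ran from 2.84 to 5.63 and miR-182 from 3.20 to 5.90. In edgeR miR-96 entered only with no filter beyond 1 read, at 7.11 (adjusted p = 0.00633). Library-size scaling moved the median log2 fold change of all miRNAs from 0.34 to 0.97 and the calls from 42 higher and 16 lower to 68 and 5. The count of called miRNAs ran from 24 to 65 without 1 library. With 3 added to each count, the log2 ratio (HSA minus control) of miR-96 to miR-183 was -1.35 and to miR-182 -1.69, and after thinning the latter was -1.97, each past the threshold in the exact test. Without 1 library the ratio of miR-96 to miR-183 ran from -0.50 to 0.22. With scaling by library size only, r of miR-183 with miR-182 in HSA was 0.99 (adjusted p = 0.0167 in the exact test), r of the cluster was 0.93 with the epithelial, 0.87 with the neuroendocrine and 0.12 with the lymphoid and myeloid list. With 5 CPM added, r of miR-183 with miR-96 in control was -0.02. Without the 2 libraries farthest from the median, r turned to 0.09 for the muscle list and 0.39 for the endothelial list. The cause of these changes was not tested. Control levels rest on 10 to 82 cluster counts per library, which limits every ratio and correlation there.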
